A study of Sus scrofa with 24 samples.

Results

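S100A2, S100A8, S100A9 and S100A12 are 4 members of the S100 family of small calcium-binding proteins, described here across 3 regions of the pig heart and 2 treatment arms. Their probes were found on a porcine Agilent array by gene name or by an accession that RefSeq ties to the gene. They are 4 of the 7204 genes that had a named probe, and 10 other S100 genes had one too. The 9 animals were domestic pigs with a reperfused myocardial infarction made by catheter, after 250 mg aspirin and 300 mg clopidogrel by mouth on the preceding day. All of them went on with 100 mg aspirin and 75 mg clopidogrel per day. At 1 month after the infarct, pigs 11 to 16 received the secretome of apoptotic peripheral mononuclear cells by injection into the heart muscle through a catheter. Pigs 10, 18 and 40, which the labels give as not treated, are taken here as the medium placebo arm. The design text names 8 pigs per arm, and 6 secretome and 3 medium pigs were analysed here. Tissue was taken 1 month after treatment. The groups are 6 secretome and 3 medium arrays of the infarct core, 6 and 3 of the border zone that was injected, and 4 and 2 of the normal region, which is the remote muscle. No normal region array of pigs 12, 13 and 40 was used here.

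S100 proteins work mostly as dimers whose shape changes when calcium enters the loops of a pair of units called EF hands. S100A8 and S100A9 form calprotectin, an abundant protein complex of neutrophils and monocytes that binds metal ions and, once released, acts on toll-like receptor 4. S100A12 is made by the same cells in human and pig and binds the receptor RAGE. S100A2 is known from human epithelia, where it lies largely in the nucleus and is linked to p53. In infarcted heart, calprotectin is known as a product of the early wave of neutrophils and monocytes.

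The regions were checked against muscle markers. All 6 measured cardiomyocyte markers were lower in the infarct core than in the normal region, where 30.9% of all named genes were lower. None passed between border zone and normal region. Only 0.59% of named genes rose and 0.0155% fell there, so that count says nothing about border zone muscle. The mean log2 level of the markers ran from 2.65 to 8.51 on the infarct core arrays. It ran from 8.29 to 8.94 on the normal region arrays, so the ranges overlapped. Levels here are log2 of the processed signal, with 0 at the 75th percentile of the array. A value can be compared across arrays but not between genes. Between 61.5% and 75.6% of probes per array were well above background, and the lowest share and the dimmest 75th percentile were those of the border zone array of pig 40. The arrays were scanned in 2 series of 12, each with arrays of both arms. In bulk tissue, a change in the number of cells of a type and a change in RNA per cell cannot be told apart.

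The probe sequences are shown because they say which stretch of each transcript was read. On the array, 6 probes carried a member's name and 5 were kept. The RefSeq table for Sscrofa11.1 places all 4 genes on chromosome 4, with S100A8, S100A12 and S100A9 next to each other in that order, and S100A2 between S100A16 and S100A3. The probes of the 3 neighbouring genes are printed 5′ to 3′, and capitals mark codons that match a searched pattern of the calcium-binding EF-hand loop. In the frame of its capitals the S100A8 probe runs on into tga, a stop codon. Whether the probes read coding sequence throughout was not tested.
S100A8: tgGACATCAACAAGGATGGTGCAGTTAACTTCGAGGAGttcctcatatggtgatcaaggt
S100A9: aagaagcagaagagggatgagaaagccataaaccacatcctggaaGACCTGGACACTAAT
S100A12: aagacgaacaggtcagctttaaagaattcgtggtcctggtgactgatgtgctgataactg
The S100A8 probe held 12 codons of the canonical loop, a pattern found in 0.0206% of all 43603 probes when their 3 frames were read on the printed strand. The S100A9 probe ended on 5 codons that match a looser pattern searched for the opening of a loop, found at the end of 0.0252% of probes. A loop that begins at the second GAC of these codons would also fit, so the capitals may include codons that lie before the loop. Neither pattern as searched was found in the S100A12 window, so none of its letters is in capitals. A closing part of a loop was not searched for, so the lack of capitals does not show that this probe misses the loop.

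S100A2 had 3 probes, of which the last 30 bases are given, with the hexamer AATAAA in capitals.
S100A2, brightest probe: ttttttagttttatattcataaactttttt
S100A2, second probe: ttttttagttttatattcAATAAActtttt
S100A2, dim probe: ggcacactgctaaaattattaaaagacatg
The brightest and the second probe share their first 49 of 60 bases, so they are near repeats of one measurement and not independent evidence. AATAAA, the usual polyadenylation signal, stood in the last 30 bases of 7.33% of probes on the printed strand and of 9.32% on either strand. The dim probe reads another stretch and was well above background on 2 arrays only, so it was left out of the tests.

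S100A2 was the 1 member of the 4 that passed a test between regions. On the infarct core arrays of the secretome pigs 11 to 16 its log2 levels were 1.10, -0.93, -1.64, -1.59, -1.67 and -1.77. On those of the medium pigs 10, 18 and 40 they were 1.10, -0.61 and 1.68. In the normal region the levels were -4.08, -3.52, -3.91 and -3.82 in secretome pigs 11, 14, 15 and 16, and -6.11 and -3.86 in medium pigs 10 and 18. Every infarct core array lay above every normal region array, which held for 7.41% of all probes tested. The value of -6.11 was not well above background, and the other normal region values were.

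With both arms weighted equally, S100A2 rose to a level 4.08 ± 0.50 log2 units above the normal region in the infarct core (SE, 9 and 6 arrays), a 16.9-fold difference, with a limma adjusted p of 1.72e-06. Of all 34358 probes tested, 25.4% rose and 27.6% fell at an adjusted p under 0.05 in that comparison, 53.0% in either direction, so a call by itself is common here. The second probe gave 3.94 ± 0.49 (limma adjusted p = 2.33e-06). Within the 6 pigs that had both regions, the infarct core was higher in 6, by 1.93 to 7.21, and the exact sign-flip test gave p = 0.0312, the smallest that 6 pairs allow. Those within-pig differences were 2.14 at the median of 4 secretome pigs and 3.25 and 7.21 in the 2 medium pigs. The 7.21 of pig 10 is set against its normal region value at background, so it is not an exact size, and without that pig the fitted difference was 3.27. The difference was 3.22 within the first scan series and 5.16 within the second. In the second series pig 10 is the 1 medium pig, so 5.16 is not an exact size either. The difference kept its call under every setting and with every pig left out. However, its size was 1.80 with normexp background correction and 1.56 in the authors' deposited values.

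**Figure D1:**
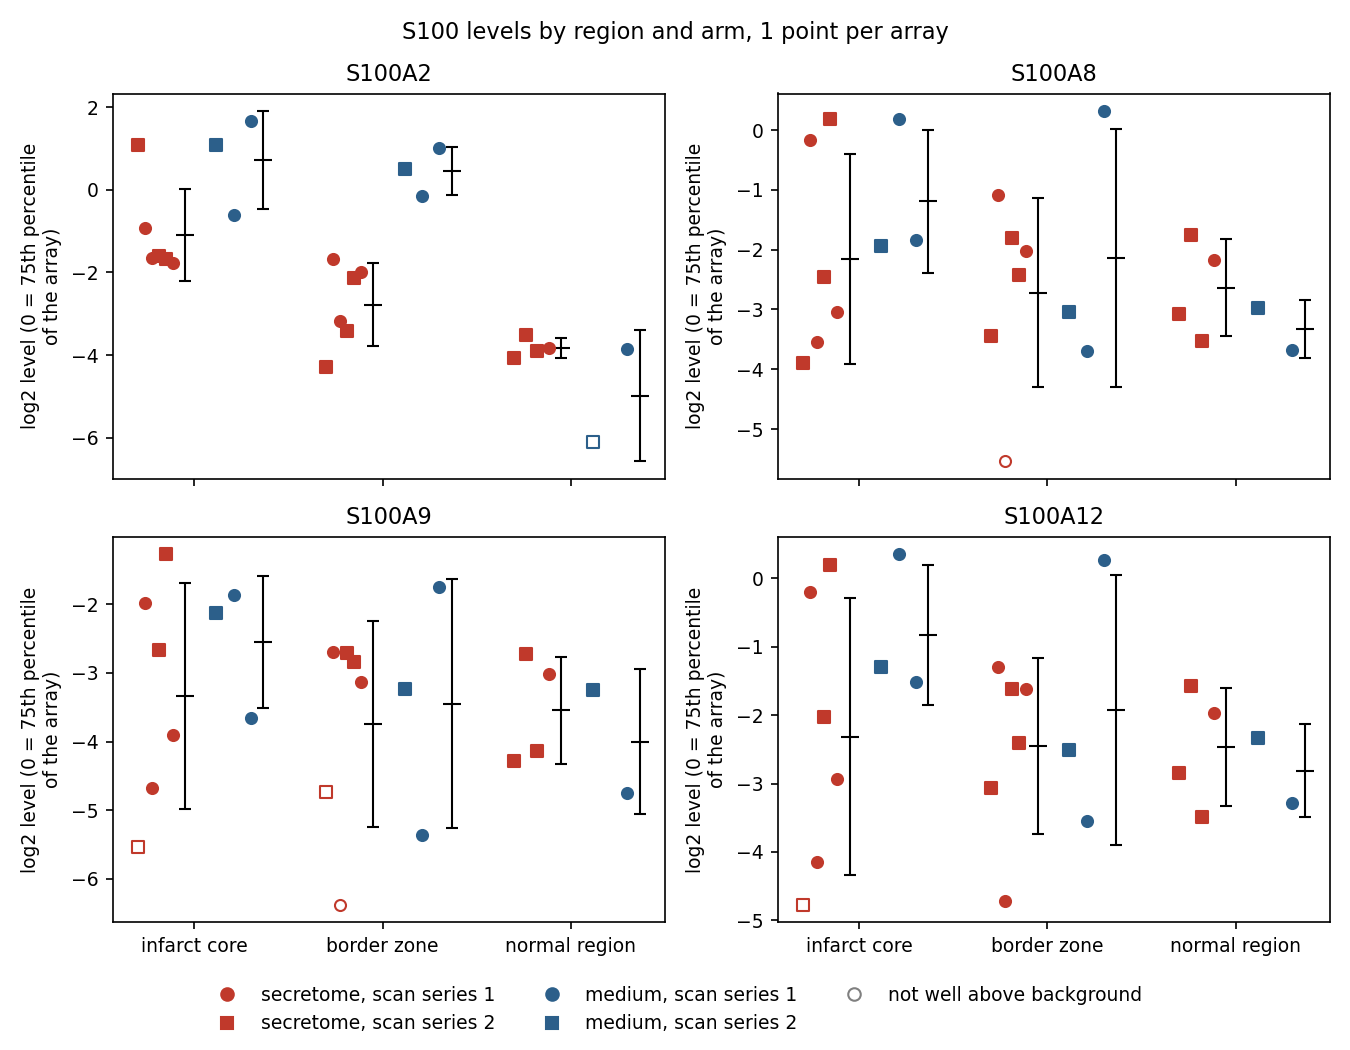
Log2 levels of S100A2, S100A8, S100A9 and S100A12 on each of 24 arrays, by region and, within region, secretome (red, left) and medium (blue, right), with group means and SD as bars, circles and squares for the first and second scan series, and open symbols for values not well above background. For S100A2 all infarct core arrays lie above all normal region arrays and the 6 secretome border zone arrays lie below the 3 medium ones, while for the other members the regions overlap.

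Border zone levels of S100A2 parted by arm. They were -4.29, -1.67, -3.18, -3.42, -2.14 and -1.99 in secretome pigs 11 to 16, against 0.51, -0.14 and 1.01 in medium pigs 10, 18 and 40. All 6 secretome arrays lay below all 3 medium arrays. With both arms weighted equally, S100A2 rose in the border zone by 3.1 ± 0.50 over the normal region, an 8.57-fold difference, with a limma adjusted p of 0.0209. Only 0.457% of probes rose and 0.00873% fell in that comparison, 160 in all, a count that ran from 0 to 269 with 1 pig left out. Within pigs the difference was -0.21, 0.10, 1.77 and 1.83 in the secretome pigs 11, 14, 15 and 16, and 6.62 and 3.72 in the medium pigs 10 and 18. The value of pig 10 is again set against a level at background. The border zone was higher in 5 of 6 pigs (exact sign-flip p = 0.0938). The call was lost without pig 10 (limma adjusted p = 0.134), pig 16 (0.0845) or pig 40 (0.0583), when pig was not a block (3.25, limma adjusted p = 0.0749) and when it was a fixed one (3.04, 0.225). It was also lost with normexp (1.39, limma adjusted p = 0.132) and in the authors' deposited values (1.08, 0.164), and with scan series as a covariate (3.15, 0.0541). Within the first scan series the difference was 2.75 (limma adjusted p = 0.063). Within the second it was 3.59, where pig 10 is the 1 medium pig, so that size is not exact.

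Infarct core against border zone gave 0.98 ± 0.43 for S100A2, with a 95% interval from 0.09 to 1.87 and a limma adjusted p of 0.066, in a comparison where 23.0% of probes rose, 23.6% fell and 46.7% passed in either direction. The infarct core was higher in 8 of 9 pigs, by up to 5.39 in secretome pig 11, and lower by 0.47 on the log2 scale in medium pig 18 (mean 1.22 ± 1.70, SD, exact sign-flip p = 0.0156). Without pig 11 the fitted difference was 0.61 (limma adjusted p = 0.133), and without pig 18 it was 1.16 and passed (0.0402). The second probe gave 1.06 ± 0.43 (limma adjusted p = 0.047).

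**Figure D2:**
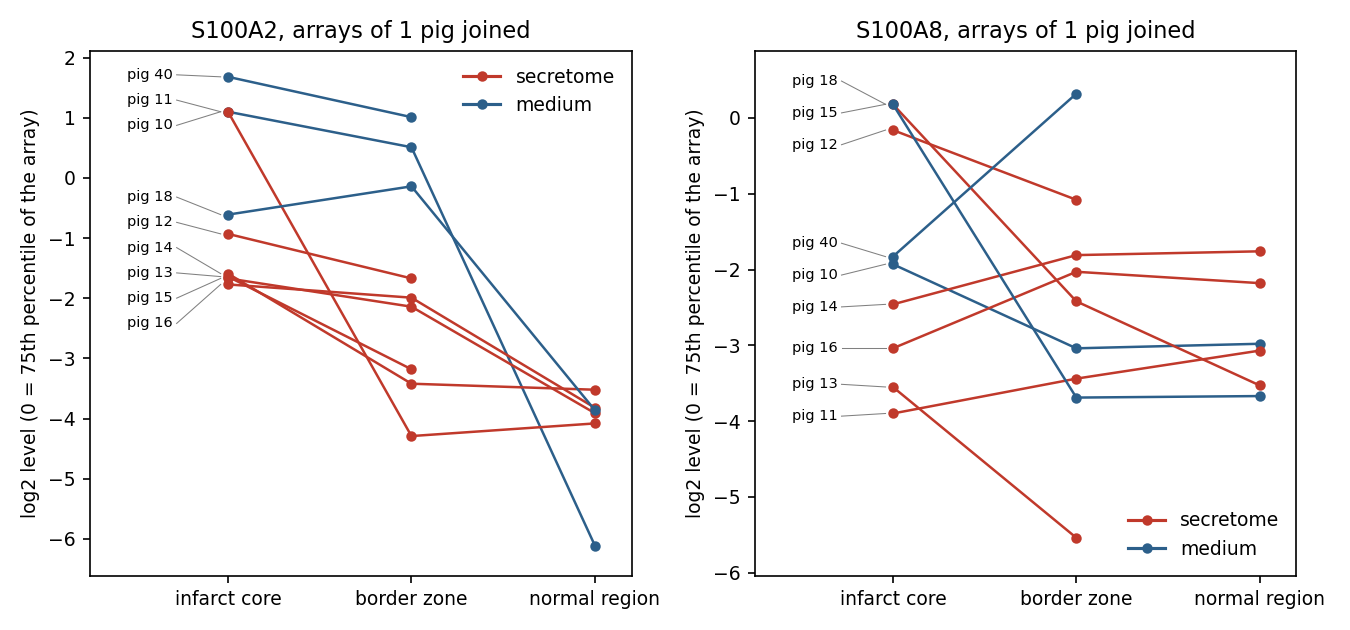
Log2 levels of S100A2 (left) and S100A8 (right) with the arrays of each pig joined from infarct core through border zone to normal region, secretome in red and medium in blue. For S100A2 each of the 6 lines that reach the normal region ends below its infarct core value. For S100A8 the lines of pigs 15 and 18 drop by 3.71 and 3.85 from infarct core to normal region, while those of pigs 11, 14 and 16 end slightly higher in the normal region.

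The question of the treatment comparison was whether secretome differed from medium placebo. For S100A2 in the border zone the secretome mean was -2.78 ± 1.01 (SD, n = 6) and the medium mean 0.46 ± 0.58 (SD, n = 3). Secretome minus medium was -3.24 ± 0.90 (SE), with a 95% interval from -5.12 to -1.37, which is 0.105 times the medium level. The exact permutation test of arms over pigs gave p = 0.0119, the smallest that 6 against 3 pigs allow, and limma gave p = 0.00169 before adjustment. After adjustment over all probes the limma p was 0.662, so the difference did not pass. Limma called 0.0% of border zone probes, and 2475 had an unadjusted p under 0.05. S100A2 ranked 76 of 34358 by p there, and 1.11% of probes had all secretome arrays below all medium arrays. The difference was -2.72 within the first scan series and -3.80 within the second, where pig 10 is the 1 medium pig, and it ran from -3.55 to -2.94 when 1 pig was left out. The second probe gave a mean difference of -3.39 (exact permutation p = 0.0119).

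In the infarct core the S100A2 means were -1.08 ± 1.11 (SD, n = 6) with secretome and 0.72 ± 1.19 (SD, n = 3) with medium. Secretome minus medium was -1.80 ± 0.90 (limma adjusted p = 0.974, exact permutation p = 0.0476), in a comparison with 0.0146% of probes called, all lower. The groups overlapped, since secretome pig 11 lay at 1.10, level with medium pig 10. With 1 pig left out the difference ran from -2.47 (pig 18) to -1.32 (pig 40), and it was -2.24 without pig 11. In the normal region secretome minus medium was 0.91 ± 1.03 (limma adjusted p = 1.0, exact permutation p = 0.2 with 4 against 2 pigs), where 0.0% of probes were called and 596 had an unadjusted p under 0.05. It turned to -0.52 without pig 10, whose normal region value was not well above background. The arm difference in the infarct core minus that in the border zone was 1.44 ± 0.86 (limma adjusted p = 0.841, 0.0% of probes called, 1877 with an unadjusted p under 0.05), so the arm differences in these 2 regions were not shown to differ.

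**Figure D3:**
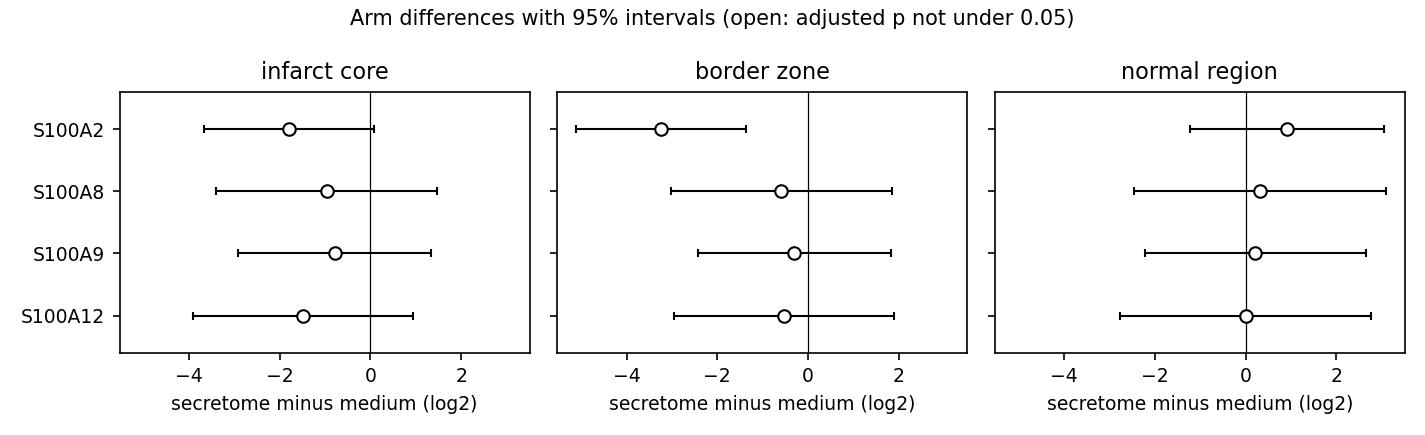
Secretome minus medium on the log2 scale with 95% intervals from limma, for the 4 genes in the infarct core, the border zone and the normal region, and open points because no adjusted p was under 0.05. The S100A2 interval in the border zone, from -5.12 to -1.37, is the one that lies wholly below 0.

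By group mean, S100A2 ran from the highest to the lowest level in the order infarct core with medium, border zone with medium, infarct core with secretome, border zone with secretome, normal region with secretome and normal region with medium. The ranges of neighbours in that order overlapped for each of the 5 steps.

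For S100A8, S100A9 and S100A12 no difference between regions passed, and the arrays of a region spread widely. S100A8, the smaller chain of calprotectin, had infarct core levels of -3.90, -0.16, -3.55, -2.46, 0.18 and -3.04 in secretome pigs 11 to 16, and -1.93, 0.18 and -1.83 in medium pigs 10, 18 and 40. In the border zone its levels were -3.44, -1.08, -5.54, -1.81, -2.42 and -2.03 in the secretome pigs and -3.04, -3.69 and 0.32 in the medium pigs. The normal region gave -3.07, -1.76, -3.53 and -2.18 in secretome pigs 11, 14, 15 and 16, and -2.98 and -3.67 in medium pigs 10 and 18. The 3 regions overlapped, and the border zone value of pig 13 was not well above background. High values stood on the infarct core arrays of pigs 12, 15 and 18 and on the border zone array of pig 40.

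S100A8 in the infarct core minus the normal region was 1.17 ± 0.64, with a 95% interval from -0.17 to 2.51 (limma adjusted p = 0.132). Within pigs the difference was 3.71 in secretome pig 15 and -0.69, -0.83 and -0.87 in secretome pigs 14, 11 and 16. It was 3.85 and 1.05 in medium pigs 18 and 10, so it was above 0 in 3 of 6 pigs (exact sign-flip p = 0.375). Border zone minus normal region was 0.42 ± 0.64 (limma adjusted p = 0.808), and infarct core minus border zone was 0.75 ± 0.56 (0.28). Pig 40 decided both infarct core comparisons. Without it, infarct core minus normal region was 1.49 (limma adjusted p = 0.0372) and infarct core minus border zone was 1.53 (0.0364). With its border zone array alone left out they were 1.43 and 1.46 and passed too, and without its infarct core array the first was 1.5 and passed. The alternatives without single arrays were chosen after seeing the data. That border zone array had the lowest share of probes above background, and that infarct core array had the lowest cardiomyocyte level, 2.65. Their part in the result was not tested.

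S100A9, the larger chain of calprotectin, was not well above background on 3 of 24 arrays. Its infarct core levels ran from -5.54 to -1.27 in secretome pigs (median -3.28) and were -2.13, -1.86 and -3.65 in medium pigs 10, 18 and 40. In the border zone they ran from -6.38 to -2.70 with secretome (median -2.98) and were -3.24, -5.36 and -1.74 with medium. The normal region gave -4.28, -2.73, -4.14 and -3.02 with secretome, and -3.25 and -4.75 with medium. Again no region stood apart. Infarct core minus normal region was 0.84 ± 0.56 (limma adjusted p = 0.217), border zone minus normal region 0.19 ± 0.56 (0.915) and infarct core minus border zone 0.65 ± 0.49 (0.285). Without pig 40 the last was 1.36 and passed (limma adjusted p = 0.0331), and without its border zone array alone it was 1.24 (0.039).

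S100A12, the RAGE ligand, followed the same arrays. Its infarct core levels were -4.77, -0.20, -4.14, -2.03, 0.19 and -2.94 in secretome pigs 11 to 16, and -1.30, 0.35 and -1.52 in medium pigs 10, 18 and 40. Border zone levels were -3.06, -1.29, -4.72, -1.62, -2.41 and -1.62 with secretome and -2.51, -3.55 and 0.27 with medium. In the normal region they were -2.85, -1.57, -3.49 and -1.97 with secretome, and -2.33 and -3.29 with medium. The infarct core value of pig 11 was not well above background. The highest values were those of the infarct core of pigs 18, 15 and 12 and of the border zone of pig 40, as for S100A8. Infarct core minus normal region was 0.97 ± 0.64 (limma adjusted p = 0.211), border zone minus normal region 0.35 ± 0.64 (0.848) and infarct core minus border zone 0.62 ± 0.55 (0.377). Left-out pigs moved the first between 0.35 and 1.30 and none made it pass.

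Between arms, none of the 3 genes passed in any region. In the infarct core secretome minus medium was -0.96 ± 1.17 for S100A8, -0.79 ± 1.02 for S100A9 and -1.49 ± 1.17 for S100A12, with limma adjusted p of 0.98, 0.98 and 0.974. The 95% interval for S100A8 ran from -3.40 to 1.47, which is 0.0948 to 2.78 times the medium level. In the border zone the differences were -0.59 ± 1.17, -0.30 ± 1.02 and -0.52 ± 1.17, with limma adjusted p of 0.891, 0.939 and 0.904. They turned to 0.83, 0.88 and 0.78 without the border zone array of pig 40. In the normal region the differences were 0.32 ± 1.34 for S100A8, 0.21 ± 1.17 for S100A9 and 0.00 ± 1.33 for S100A12 (limma adjusted p = 1.0 for each). By group mean, each of the 3 genes was highest in the infarct core with medium and lowest in the normal region with medium, and the ranges of neighbours in the order of means overlapped at each step.

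The 3 neighbouring genes varied together. Over 24 arrays Pearson's r was 0.97 between S100A8 and S100A12, 0.92 between S100A8 and S100A9 and 0.93 between S100A9 and S100A12. Within the 9 infarct core arrays the same pairs gave 0.97, 0.90 and 0.95, and within the 9 border zone arrays 0.99, 0.93 and 0.94. These are descriptions over arrays that share pigs and scan series, and centring each scan series left them at 0.97, 0.94 and 0.96 over all arrays. S100A2 gave r of 0.31 with S100A8, 0.19 with S100A9 and 0.24 with S100A12.

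**Figure D4:**
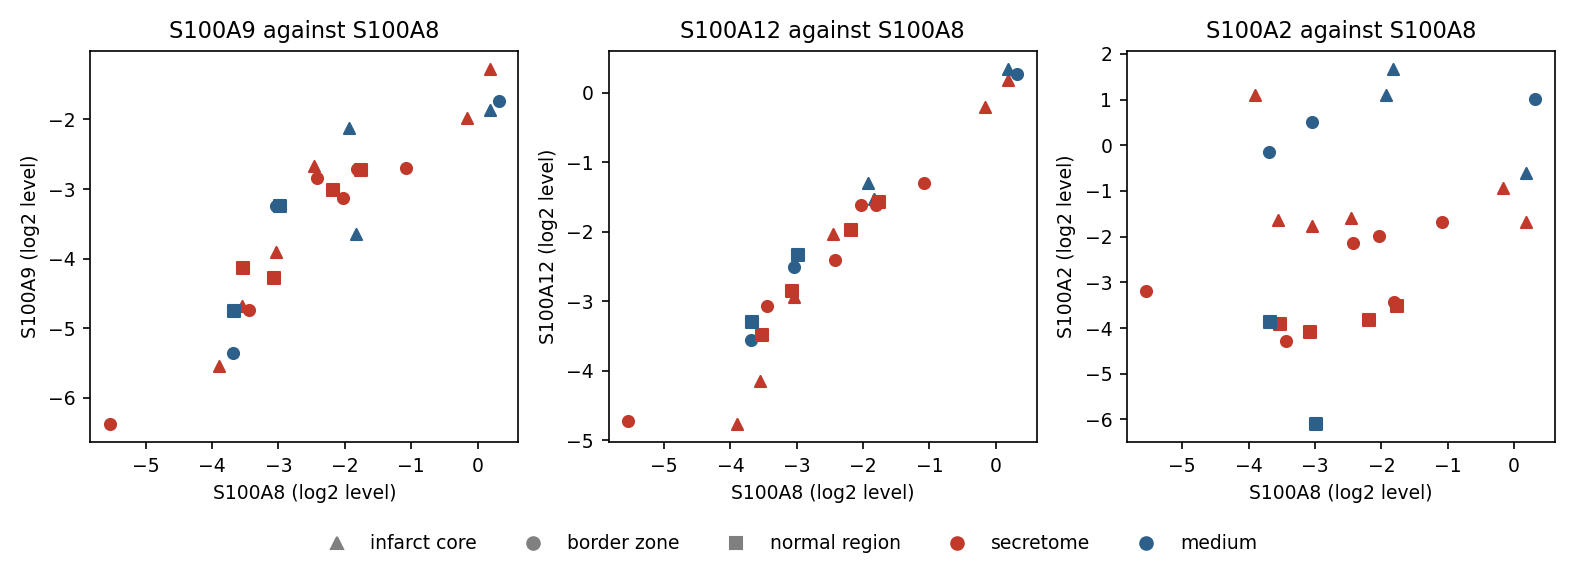
Log2 levels of S100A9, S100A12 and S100A2 (vertical axes) against S100A8 (horizontal axis) on 24 arrays, with triangles for the infarct core, circles for the border zone, squares for the normal region, red for secretome and blue for medium. S100A9 and S100A12 rise with S100A8 along 1 line through all regions (r of 0.92 and 0.97), and S100A2 does not (r of 0.31).

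Among 6428 genes, those most like S100A8 over the 24 arrays were S100A12 (r = 0.968), S100A9 (0.916) and TREM1 (0.691), a receptor of neutrophils and monocytes. TREM1 also came next after the family members for S100A9 (0.733) and for S100A12 (0.718). It was well above background on 5 arrays of the infarct core, 2 of the border zone and 0 of the normal region, so these correlations run mostly over values at background, and with S100A8 it was 0.587 without the 2 farthest arrays. The genes most like S100A2 were SDF2L1, a chaperone partner of the endoplasmic reticulum (r = 0.867), the family member S100A6 (0.865) and MPZL3 (0.858). SDF2L1 rose in the infarct core by 1.56 ± 0.18 (limma adjusted p = 1.1e-06). MPZL3 was well above background on 5 arrays of the infarct core, 1 of the border zone and 0 of the normal region, so its correlation also runs mostly over values at background.

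Of the 15 other S100 genes listed, 10 were measured, and 7 rose and 1 fell in the infarct core against the normal region, with a median difference of 1.49. Over all 6442 named genes, 1781 rose and 1990 fell and the median was -0.07. S100A6, known as calcyclin, rose by 3.37 ± 0.32 (limma adjusted p = 1.82e-07), and its 4 probes gave 3.37 to 3.58. S100A4, a marker of fibroblasts and of motile cells, rose by 3.15 ± 0.33 (limma adjusted p = 3.97e-07). S100A14 rose by 2.11, S100A10, the partner of annexin A2, by 1.70, S100A11 by 1.51 and S100A5 by 1.48. S100A5 was well above background on only 3 of 6 normal region arrays, so its difference is partly set against values at background and is not an exact size. A further probe of S100A11 gave 0.18 ± 0.48 and did not pass (limma adjusted p = 0.775). S100A3 is counted among the 7 but was well above background on only 3 infarct core arrays and on no normal region array, so no size is given. S100A7, known in human skin as psoriasin, fell by 1.54 on the log2 scale, and S100A16 (-0.12) and S100G (-0.29) did not pass.

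**Figure D5:**
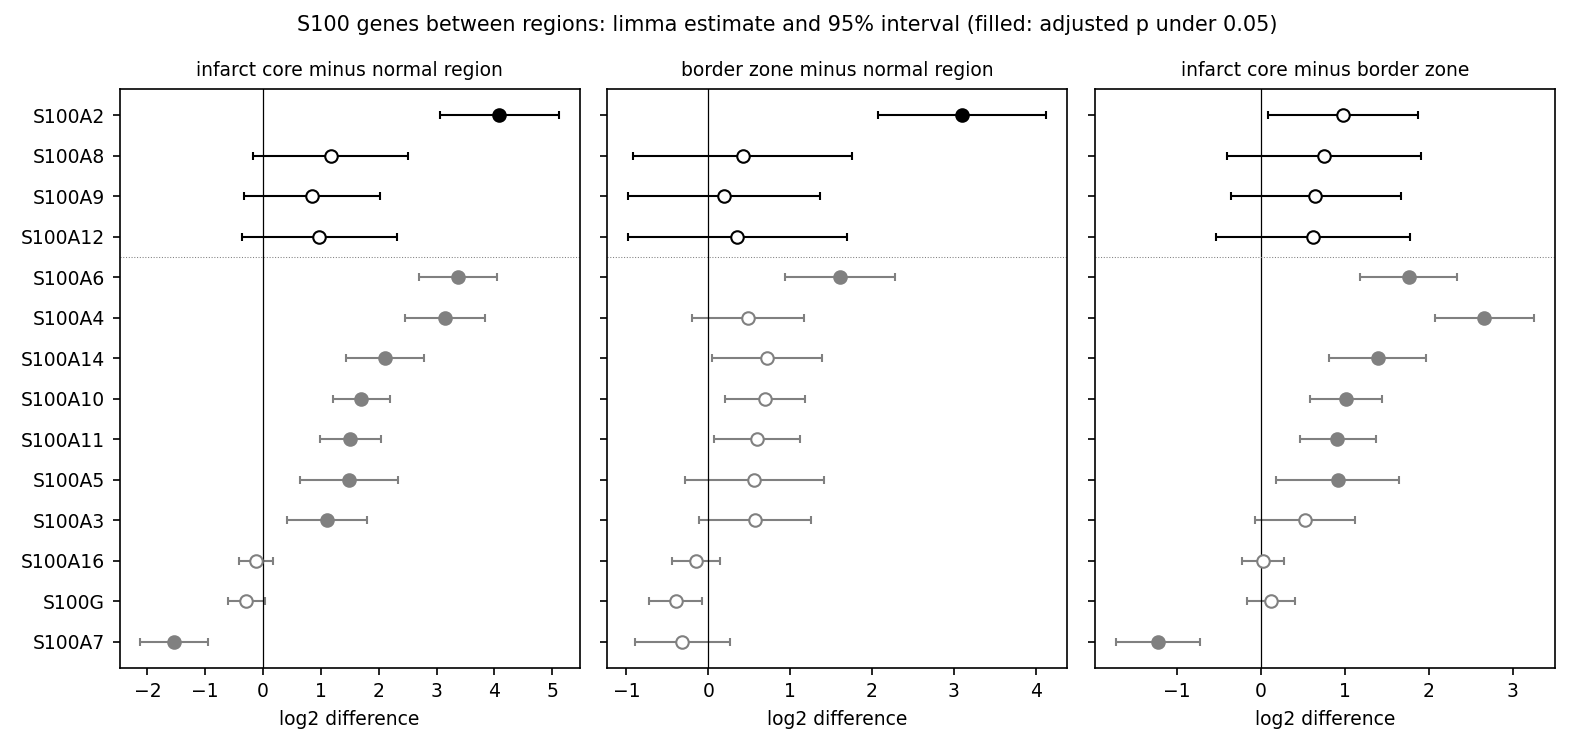
Differences between regions on the log2 scale with 95% intervals from limma, for the 4 genes (black) and the 10 other S100 genes (grey), filled where the adjusted p was under 0.05. S100A2 (4.08) and S100A6 (3.37) lead the infarct core minus normal region panel, and they are the filled points of the border zone minus normal region panel (3.1 and 1.61).

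In the border zone S100A6 was the 1 gene of those 10 that rose over the normal region, by 1.61 ± 0.32 (limma adjusted p = 0.0295). Of all named genes, 0.59% rose and 0.0155% fell in that comparison. Infarct core against border zone gave 6 higher and 1 lower of these 10, beside 25.7% higher and 26.4% lower of all named genes. None of the 10 passed between arms in any region. The mean log2 level of the 10 genes ran from -0.87 to 0.19 on the secretome border zone arrays and from 0.28 to 0.47 on the medium ones. Of single probes, 1.11% had all secretome border zone arrays below all medium ones. That share is not one for means over 10 genes, so how rare such a parting of a list mean is was not tested. S100A3, which is part of that mean, was not well above background on any secretome border zone array. The arms overlapped in the infarct core (0.57 to 0.74 with secretome, 0.61 to 1.36 with medium) and in the normal region (-0.49 to -0.27 and -0.56 to -0.43). S100A6 in the border zone gave -1.61 ± 0.59 for secretome minus medium (limma adjusted p = 0.662).

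Receptors and partners of S100 proteins were measured for 12 of 18 listed genes, of which 9 rose and 3 fell in the infarct core, with a median of 1.53, beside 27.6% higher and 30.9% lower of all named genes. CYBA, a subunit of the phagocyte oxidase to which calprotectin hands arachidonic acid, rose by 1.89 ± 0.21. MYD88, the adaptor of toll-like receptors, rose by 1.40 ± 0.15, and ANXA1, a partner of S100A11, by 1.89 ± 0.21. The 3 that fell, named after their values were seen, were the scavenger receptors CD36 (-2.48 ± 0.38) and SCARB1 (-0.77 ± 0.17) and the S100A9 receptor BSG (-1.36 ± 0.32). None of the 12 passed in the border zone against the normal region. Only 0.59% of all named genes rose and 0.0155% fell there, so that count is no result about these genes. Among inducers and downstream cytokines, 11 rose and 1 fell of 18 measured in the infarct core, with a median of 0.85. The shares over all named genes were again 27.6% higher and 30.9% lower. The 1 that fell, CEBPB, was also named after its value was seen (-0.67 ± 0.26). CEBPA, a transcription factor of myeloid cells, rose by 2.19 ± 0.21, CASP1, which activates interleukin 1 beta, by 1.71 ± 0.20 and IL10 by 1.66 ± 0.26. SPI1, the myeloid factor PU.1, was not well above background on any normal region array and was at least 2.4-fold higher in the infarct core.

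Markers of cells that could carry these genes were read beside them. For neutrophils 9 of 22 listed genes were measured, 3 rose and 1 fell in the infarct core, and the median was -0.22. That is close to the 27.6% of all named genes that rose, so the count is no result about neutrophil genes. LCN2 rose by 2.46 ± 0.36 and MMP9 by 3.0 ± 0.50, and the interleukin 8 receptor CXCR2 fell by 0.64 on the log2 scale. The mean level of the list ran from -2.11 to -0.31 on the infarct core arrays and from -2.16 to -1.46 on the normal region arrays, where PR39 was not well above background. For monocytes and macrophages all 9 measured genes of 14 rose, with a median of 1.54, led by LYZ at 5.20 ± 0.43. That list ran from 1.88 to 3.69 in the infarct core and from 0.65 to 1.53 in the normal region. Their part in the levels of S100A8, S100A9 and S100A12 was not tested.

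For S100A2 the lists of epithelium, mesothelium, and cartilage and tendon were read in the same way, beside the same 27.6% higher and 30.9% lower of all named genes. The epithelial list had 4 of 11 genes measured, of which 3 rose (EPCAM at least 1.52-fold, CDH1 by 1.10 and SFN by 0.77) and DSP fell by 1.62 on the log2 scale. Its mean level ran from -1.88 to -0.99 in the infarct core and from -2.24 to -1.15 in the normal region, where EPCAM was not well above background. The mesothelial and epicardial list had 4 of 9 measured and 2 rose, TBX18 by 2.75 ± 0.27 and KRT8 by 2.33 ± 0.58. It ran from -0.94 to 0.27 in the infarct core and from -2.88 to -1.16 in the normal region. All 4 measured genes of 7 in the cartilage and tendon list rose, among them ACAN by 6.63 ± 0.66 and COMP by 4.67 ± 0.49, and the list ran from 0.52 to 2.94 against -4.00 to -2.35. In the border zone these lists ran from -2.28 to -1.27, -2.56 to -0.27 and -3.33 to 0.87 with secretome, and from -2.13 to -1.44, -0.73 to -0.02 and -0.75 to 0.34 with medium. The ranges of both arms overlapped for each of these 3 lists. For monocytes and macrophages the border zone arrays ran from 0.68 to 1.77 with secretome and from 1.74 to 2.22 with medium. Their part in the S100A2 differences was not tested.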

How the data were processed

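RNA of 24 heart samples from 9 pigs was labelled with 1 dye and put on 1 array each. Per the file headers, the deposited scanner files hold intensity values of each spot, from which Agilent Feature Extraction 10.7.3.1 had subtracted the background and a spatial trend. The deposited table holds log2 values normalized by the authors, and the submitters' processing notes name limma 3.14.4. How they were normalized is not given in the sources used here. All 24 columns matched their own array best (correlation 0.728 to 0.825 after centring each probe), with medians of 7.684 to 7.692. That match settles their direction but not their scale, since a correlation does not depend on scale. The meaning of the common level is not known. The table served as an alternative.

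Outlier spots were left out (1 to 27 per array) and spots of a probe averaged. The processed signal was divided by the array's 75th percentile before log2 was taken. Of 43603 probes, the 34358 that were well above background on 3 or more arrays entered the tests. A single symbol was found for 15032 probes, by RefSeq accession (9458), gene ID (1690), name (3818) or synonym (66), several for 41 and none for 28530. Each gene was read from its brightest kept probe. A mean per region and arm was fitted in limma 3.58.1 (R 4.3.3) with pig as a random block (correlation 0.548). P-values were adjusted by Benjamini-Hochberg over all tested probes, with a threshold of 0.05, and region comparisons weight both arms equally. Single genes were also tested by exact two-sided sign-flip within pigs or exact permutation of arms over pigs. Pigs are the replicates, and arrays of 1 pig deviated together (21 pairs, mean r of 0.583, lowest 0.119), against 0.439 for other pigs of the same scan series and -0.454 for pigs of the other series. The block correlation was 0.204 once scan series entered the fit. The fit was tested on simulated data.

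Named are the 4 members, the other S100 genes, up to 4 genes per list with the smallest p in infarct core minus normal region, and the 3 genes most like each member. Some genes that this rule names are not reported here. The members and lists were chosen with earlier results of these data known. Alternatives were quantile scaling, normexp with an offset of 50, the percentile over detected probes, the deposited values, other filters, no or a fixed pig block, scan series as a covariate, slide as the block, each scan series alone, the mean over probes and leaving out each pig. The number of arrays limits the precision. Figures were drawn with Python 3.11.15 and matplotlib 3.10.9.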

Additional observations from a re-analysis of the deposited data

Results flagged for a closer look

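In the infarct core with secretome, the highest of 6 S100A2 values, 1.10 in pig 11, stood apart from the other 5, which ran from -1.77 to -0.93. It was the 1 outlying array among 12 groups of 4 to 6 arrays that were examined for such a gap, and chance flags about 1 in 20 groups. The border zone array of the same pig had the lowest S100A2 value of that region, -4.29.

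The dim S100A2 probe, which was left out of the tests, was well above background on the infarct core arrays of secretome pig 14, at -5.44, and of medium pig 40, at -3.96, and on none of the 6 normal region arrays.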

How the results depend on the processing

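S100A2 in the infarct core minus the normal region passed under every alternative (1.56 to 5.16) and with any pig left out (3.27 to 5.01). S100A2 in the border zone minus the normal region did not pass with normexp (1.39), in the deposited values (1.08), with no replicate block (3.25), with pig as a fixed replicate block (3.04), with scan series as a covariate (3.15) or within series 1 (2.75) or 2 (3.59), and ran from 2.37 to 3.85 with 1 pig left out. The replicate block changed no other call of the 4 genes. Infarct core minus border zone passed for S100A2 with the percentile over detected probes (1.05), and ran from 0.61 to 1.16 with 1 pig left out. The alternatives without single arrays of pig 40 were chosen after seeing the data. S100A8 in the infarct core minus the normal region then passed, at 1.5 without its infarct core array and 1.43 without its border zone array, and infarct core minus border zone passed at 1.46 for S100A8 and 1.24 for S100A9 without the border zone array. With 1 pig left out these 3 ran from 0.51 to 1.52, 0.02 to 1.53 and 0.00 to 1.36, and S100A12 from -0.08 to 1.35 for infarct core minus border zone.

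These differences never passed, and their sign turned. Border zone minus normal region was -0.27 for S100A9 and -0.04 for S100A12 with normexp, -0.02 for S100A9 without the infarct core array of pig 40, and -0.03, -0.18 and -0.06 for S100A8, S100A9 and S100A12 without its border zone array (with 1 pig left out -0.03 to 0.81, -0.18 to 0.41 and -0.06 to 0.70). Secretome minus medium in the border zone turned to 0.83, 0.88 and 0.78 without the border zone array of pig 40, and to 0.48 for S100A8 and 0.15 for S100A12 within series 2 (with 1 pig left out -1.36 to 0.64, -1.26 to 0.55 and -1.33 to 0.58). In the normal region it turned for S100A2 to -0.10 in the deposited values and -0.27 within series 1 (with 1 pig left out -0.52 to 2.11). There S100A8 gave 0.00 with slide as the block and -0.13 without the infarct core array of pig 40 (-0.32 to 0.71). S100A9 gave -0.47 within series 2 and -0.23 without that array (-0.43 to 0.77). S100A12, at 0.00 in the reported fit, gave 0.20 with normexp, 0.03 with no filter, 0.34 with no replicate block, 0.19 with the covariate, 1.07 within series 1, 0.00 as a mean over probes and 0.47 without the border zone array of pig 40 (-0.67 to 0.43). The infarct core minus border zone contrast of arms was 0.03 for S100A8 and 0.02 for S100A9 in the deposited values (with 1 pig left out -1.92 to 1.09 and -1.89 to 0.81, and -2.41 to 0.43 for S100A12). The cause was not tested for any of these. The count of probes called in the border zone, 160 in the reported fit, ran from 0 to 269 with 1 pig left out and was 333 within series 1 and 0 with no replicate block, with the fixed block, with the covariate and in the deposited values. S100A9 was not well above background on 3 arrays, which limits its low values.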
